A study of Mus musculus with 8 samples.

Results

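The cytotoxic granule is described here through 10 genes, namely the granzymes Gzma, Gzmb, Gzmc, Gzmd, Gzme, Gzmf, Gzmg and Gzmk, the pore-forming protein gene Prf1 and the granule membrane gene Nkg7. They were chosen by name, by matching the Ensembl identifiers of the count tables to mouse gene symbols. All 10 were found among 25006 identifiers, and all 10 passed the filter on low counts that kept 15310 genes for testing. For most of them that filter was passed through the Balb/c libraries alone.

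RNA was sequenced from tumors of 4T1, a mammary carcinoma line of the mouse used to model triple-negative disease. Tumors grew from cells injected in the fat pad and were collected at 20 days at the latest. The study examined tumor gene expression with and without CD95, the death receptor encoded by Fas, in NSG and in Balb/c hosts. NSG mice have no mature T, B or NK cells but keep myeloid and mast cells, whereas Balb/c mice have a full immune system. There were 4 groups of 2 libraries. NSG wild type and Balb/c wild type each held 1 tumor library of the parental line and 1 of a line that stably expresses vCas9. NSG knockout and Balb/c knockout each held 1 library of CD95 knockout clone 54 and 1 of clone 69, both made with CRISPR/Cas9. The 2 replicates of a group were therefore different cell lines. Only the knockout lines are labelled as clones, and being a clone cannot be told apart from lacking CD95 in this design. All lines derive from 4T1, and host age is not given. Whether a library came from 1 mouse or from a pool is not stated either, so p-values measure only the spread between these libraries.

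Killer lymphocytes store granzymes and perforin in secretory granules. When the granule fuses at the contact with a target cell, perforin opens the target membrane and the granzymes, which are serine proteases, enter and cleave their substrates. Gzma encodes a trypsin-like protease and Gzmb a protease that cuts after aspartate and activates caspases. The genes Gzmc to Gzmg form a rodent family beside Gzmb whose roles are less well known. Both CD8 T cells and NK cells carry these granules, so the genes do not mark a single cell type. Gzmc, Gzmd and Gzme were also read in the NSG tumors, as described further on.

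The granzyme genes lie in 2 places of the GRCm38 genome, all on the minus strand. Gzma (chr13:113093825-113100981) and Gzmk (chr13:113171608-113225908) are neighbours, and Gzmk overlaps Esm1 on the other strand. The remaining 6 stand in a cluster of 7 protein-coding granzyme genes at chr14:56117626-56262260, a span of 144.6 kb. Their order is Gzme (chr14:56117626-56120625), Gzmd (chr14:56129556-56132608), Gzmg (chr14:56156582-56159579), Gzmn, Gzmf (chr14:56205263-56211417), Gzmc (chr14:56231441-56234656) and Gzmb (chr14:56258838-56262260). Gzmf overlaps the antisense gene Gm4022. Prf1 (chr10:61297833-61304680) and Nkg7 (chr7:43437073-43438249) are on plus strands. The strand setting of the counting is not given in the sources used here, so reads of Gzmf and Gm4022, or of Gzmk and Esm1, may not have been told apart.

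Genes of the cluster differed in where they were read, as described further on, and their start regions can be set side by side. The lines hold bases -200 to -26 before the RefSeq start site (GRCm38.p6) of Gzmb, of 3 genes read in NSG tumors (Gzmc, Gzmd, Gzme) and of Gzmf, which had at most 1 count in any NSG library. All are minus strand, at chr14:56262360-56262534, chr14:56234683-56234857, chr14:56132619-56132793, chr14:56120651-56120825 and chr14:56211433-56211607 in the order printed. Capitals mark exact matches to 4 motifs searched on both strands, RUNX (TGTGGT, or ACCACA on the other strand), AP-1 (TGANTCA), CRE (TGACGTCA) and T-box (GGTGTGA), none of which overlapped another in these windows.
Gzmb: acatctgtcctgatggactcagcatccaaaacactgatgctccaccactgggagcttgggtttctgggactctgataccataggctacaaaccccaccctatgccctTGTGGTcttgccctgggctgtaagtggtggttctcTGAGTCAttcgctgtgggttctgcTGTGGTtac
Gzmc: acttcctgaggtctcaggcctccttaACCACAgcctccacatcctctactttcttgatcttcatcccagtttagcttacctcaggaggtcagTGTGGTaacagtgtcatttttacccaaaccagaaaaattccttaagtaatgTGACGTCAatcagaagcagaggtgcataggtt
Gzmd: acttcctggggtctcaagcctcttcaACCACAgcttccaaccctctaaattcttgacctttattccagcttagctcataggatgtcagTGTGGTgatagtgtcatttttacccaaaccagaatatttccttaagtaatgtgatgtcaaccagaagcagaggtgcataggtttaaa
Gzme: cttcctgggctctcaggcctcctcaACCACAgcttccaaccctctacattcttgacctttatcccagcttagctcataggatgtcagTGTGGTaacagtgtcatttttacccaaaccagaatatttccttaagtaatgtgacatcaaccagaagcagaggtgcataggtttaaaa
Gzmf: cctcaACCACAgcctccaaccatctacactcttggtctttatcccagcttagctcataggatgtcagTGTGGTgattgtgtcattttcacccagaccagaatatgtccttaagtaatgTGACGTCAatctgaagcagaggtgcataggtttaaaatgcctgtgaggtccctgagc

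In the 250 bases before the start site, the RUNX letters were found in 9 of the 10 genes, all but Gzmk, and in 14.05% of 32851 RefSeq promoters. Gzmb was the sole member with AP-1 letters, which 6.75% of promoters hold. Gzmc, Gzmf and Gzmg carried the CRE letters, which 1.55% of promoters hold, and Gzmk and Nkg7 the T-box letters, which 3.33% hold. At the corresponding place Gzmd had tgatgtca, with C4T against the CRE letters counted from 1 at the motif's first base, and Gzme had tgacatca, with G5A. A match is a run of letters, not a measured binding site. Gzmd and Gzme promoters were 95.6% identical over aligned bases, those of Gzmc to Gzmg otherwise 84.4% to 89.7%, and the Gzmb promoter shared 42.4% to 50.4% with them.

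The same likeness is found in the coding sequences and bears on the counts. Gzmd and Gzme coding sequences were 94.8% identical, and the other pairs among Gzmd, Gzme, Gzmf and Gzmg 84.7% to 88.8%. Gzmb was 75.3% identical to Gzmc and 66.5% to 67.9% to the other 4. Of all 50-base windows in their annotated transcripts, 21.9% were shared with another gene for Gzmd, 20.6% for Gzme, 19.8% for Gzmg, 19.4% for Gzmf and 4.14% for Gzmc. With 75-base windows the shares were 5.73% for Gzmd, 4.75% for Gzme, 6.83% for Gzmg, 9.47% for Gzmf and 0% for Gzmc. No window of either length was shared for Gzma, Gzmk, Gzmb, Prf1 or Nkg7. For Gzmf the shared 75-base windows were shared with the antisense gene Gm4022 alone and with no other granzyme. Its shared 50-base windows were shared with Gm4022, Gzmd and Gzmg. Read length is not stated, so single values of Gzmd, Gzme, Gzmf and Gzmg are uncertain as to which gene a read came from.

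**Figure D1:**
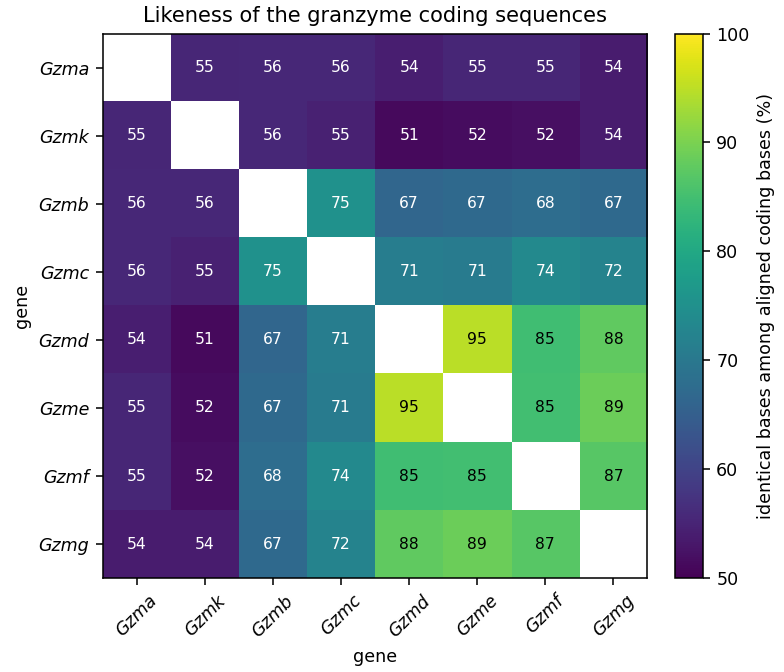
Percent identical bases among aligned coding bases for each pair of the 8 granzyme genes, with both axes listing the genes and the colour scale in percent. Gzmd and Gzme form the closest pair at 94.8%, and Gzma and Gzmk stand at 51.4% to 55.7% from all others.

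Library totals ranged from 8680070 to 19655945 counts, a 2.26-fold span, and the 10 genes together took 21 to 74 counts in the NSG libraries and 2282 to 6174 in the Balb/c libraries. Levels are given as CPM, counts scaled to library depth with TMM. Fas itself, the targeted gene, was read in every library, at 33.8 and 22.6 CPM in NSG wild type, 29.5 and 12.9 CPM in NSG knockout, 51.6 and 46.9 CPM in Balb/c wild type and 27.1 and 33.7 CPM in Balb/c knockout. The edited part of Fas is not given and host Fas RNA was counted with that of the tumor, so these values do not test the label. Epcam, Krt8 and Krt18, markers of the tumor epithelium, were read in all 8 libraries. The Balb/c clone 54 library stood apart, with a summed level of 5 macrophage markers of 8653 CPM against 1346 to 3649 CPM in the other 7 libraries, of 6 neutrophil markers of 408 CPM against 1319 to 7218 CPM, and of the 3 epithelial markers of 346 CPM against 516 to 2579 CPM. The Balb/c parental library stood apart in B cell markers, with a sum of 106 CPM against 0.692 to 24.5 CPM in the other 7.

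The first comparison asks how the granule genes differ between a host with lymphocytes and one without. NSG and Balb/c are also different strains, and other strain differences cannot be told apart from the absence of lymphocytes in this design. In wild-type tumors 8 of the 10 members were higher in Balb/c than in NSG and 0 lower, where 15.3% of all tested genes were called higher, 16.2% lower and 31.5% in either direction (edgeR quasi-likelihood test, Benjamini-Hochberg adjusted p under 0.05). In knockout tumors 6 members were higher and 0 lower, against 15.7% of all genes higher, 15.4% lower and 31.1% in either direction. Gzma, Gzmk, Gzmb, Gzmf, Prf1 and Nkg7 were higher in both comparisons. Most members passed the filter through the Balb/c libraries alone and could hardly have been called lower. These counts are therefore a description and no test of the members against all genes. The same limit holds for other listed genes near 0 in NSG. The fitted median log2 fold change of the members was 9.15 and 8.02, or 5.62 and 5.56 with genes at 0 set to their lower bounds, beside -0.08 and 0.02 over all genes. All Balb/c libraries of a genotype were above all NSG libraries for 9 members in wild type and 8 in knockout tumors, as for 35.4% and 32.4% of all genes. In a bulk tumor, fewer cells of a type and less RNA per cell cannot be told apart.

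Gzma, the trypsin-like granzyme of T and NK cells, had 0 counts in both wild-type NSG libraries and 1 and 0 counts in the knockout ones. In Balb/c it stood at 64.0 CPM (parental), 98.7 CPM (vCas9), 119.6 CPM (clone 54) and 89.4 CPM (clone 69). The level in Balb/c wild type was at least 735-fold higher than 3 counts over the NSG wild-type group, with an edgeR adjusted p of 0.000347. For the knockout tumors, where the NSG group had 1 count, the ratio was 2076 with a 95% counting interval of 372 to 82012, and the edgeR adjusted p was 0.000238. All 4 Balb/c libraries lay far above all 4 NSG libraries. Such intervals and floors cover counting error only.

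Gzmb had 2 counts in each wild-type NSG library and 0 in each knockout one. Its Balb/c levels were 64.8 CPM (parental), 161.5 CPM (vCas9), 81.5 CPM (clone 54) and 144.8 CPM (clone 69). The ratio in wild-type tumors was 783 with a 95% counting interval of 305 to 2875 (edgeR adjusted p = 0.000996), and the knockout tumors of Balb/c stood at least 699.9-fold above 3 counts over the NSG knockout group (edgeR adjusted p = 0.000530). The parental and clone 54 tumors had the lower Gzmb values in Balb/c.

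Prf1, which encodes the pore-forming protein of the granule, had 0 counts in the parental, vCas9 and clone 54 NSG libraries and 1 count in clone 69. Balb/c tumors held 28.9 CPM (parental), 55.3 CPM (vCas9), 55.1 CPM (clone 54) and 66.3 CPM (clone 69). That is at least 384-fold more in wild type (edgeR adjusted p = 0.000579) and a ratio of 1162 with a 95% counting interval of 208 to 45917 in knockout tumors (edgeR adjusted p = 0.000344). The parental tumor was the lowest of the 4.

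Nkg7, a granule membrane protein needed for full release, had 0 counts in both wild-type NSG libraries and 1 and 0 in the knockout ones. Balb/c tumors held 18.9 CPM (parental), 39.3 CPM (vCas9), 54.2 CPM (clone 54) and 56.5 CPM (clone 69). The bound for wild type was at least 267-fold (edgeR adjusted p = 0.000837), and the ratio in knockout tumors was 1072 with a 95% counting interval of 192 to 42345 (edgeR adjusted p = 0.000362). Both knockout tumors exceeded both wild-type tumors in Balb/c.

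Gzmk, a second trypsin-like granzyme found in T cells, had 0 counts in all 4 NSG libraries and 2.80, 6.93, 6.87 and 7.73 CPM in the parental, vCas9, clone 54 and clone 69 tumors of Balb/c. The lower bounds were 44.8-fold in wild type and 46.8-fold in knockout tumors (edgeR adjusted p = 0.00478 and 0.00271). The parental tumor was again the lowest.

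Gzmf, a cluster gene, had a single count among the NSG libraries, in clone 54, and 5.26, 6.79, 1.22 and 4.66 CPM in the parental, vCas9, clone 54 and clone 69 tumors of Balb/c. It was at least 54.0-fold higher in wild type (edgeR adjusted p = 0.00575), and in knockout tumors the ratio was 51.8 with a 95% counting interval of 9.05 to 2068 (edgeR adjusted p = 0.0125). The latter call was lost without the NSG clone 69 library (edgeR adjusted p = 0.0766). Gzmg had 0 counts in all NSG libraries and in the Balb/c clone 54 library, and 11, 11 and 24 counts in the parental, vCas9 and clone 69 tumors of Balb/c. It passed neither host comparison (edgeR adjusted p = 0.131 and 0.171), although it was called higher in wild-type tumors once Balb/c clone 54 or clone 69 was left out (0.0157 and 0.0193) and in knockout tumors without clone 54 (0.0166).

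Gzmc, Gzmd and Gzme, granzymes of the rodent family beside Gzmb, were each read in all 4 NSG libraries. Gzme stood at 0.761 CPM (parental), 1.90 CPM (vCas9), 4.49 CPM (clone 54) and 2.58 CPM (clone 69) in NSG and at 1.27, 1.80, 3.49 and 6.20 CPM in the same lines in Balb/c. The hosts overlapped in both genotypes, with log2 differences of 0.23 (SE 0.58, edgeR adjusted p = 0.781) in wild type and 0.45 (SE 0.52, edgeR adjusted p = 0.551) in knockout tumors. The 95% intervals, -1.11 to 1.56 and -0.76 to 1.66, leave room for a change in either direction.

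Gzmd was read at 0.346, 0.662, 2.14 and 1.09 CPM in the parental, vCas9, clone 54 and clone 69 tumors of NSG, and at 2.21, 2.70, 3.01 and 7.43 CPM in those of Balb/c. All Balb/c values were above all NSG values. On the log2 scale Balb/c stood 2.29 above NSG in wild type (SE 0.64, edgeR adjusted p = 0.0315) and 1.68 above it in knockout tumors (SE 0.57, edgeR adjusted p = 0.0576). With the cell line as a block across hosts the wild-type value was 2.30 with an edgeR adjusted p of 0.0831, and the call was also lost without any 1 of the 4 wild-type libraries (0.0897 without NSG vCas9, 0.172 without NSG parental, 0.0898 without Balb/c parental, 0.114 without Balb/c vCas9).

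Gzmc was read at 0.208, 0.580, 0.962 and 1.29 CPM in the parental, vCas9, clone 54 and clone 69 tumors of NSG and at 4.67, 2.91, 1.32 and 1.97 CPM in those of Balb/c. It was higher in Balb/c wild type, by 3.27 on the log2 scale (SE 0.59, edgeR adjusted p = 0.00769), and this call was lost without the parental library of NSG (0.0649) or of Balb/c (0.0526). In knockout tumors the difference was 0.53 on the same scale (SE 0.54, edgeR adjusted p = 0.493). The lowest Gzmc level of Balb/c, in clone 54, was just above the highest of NSG, in clone 69.

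**Figure D2:**
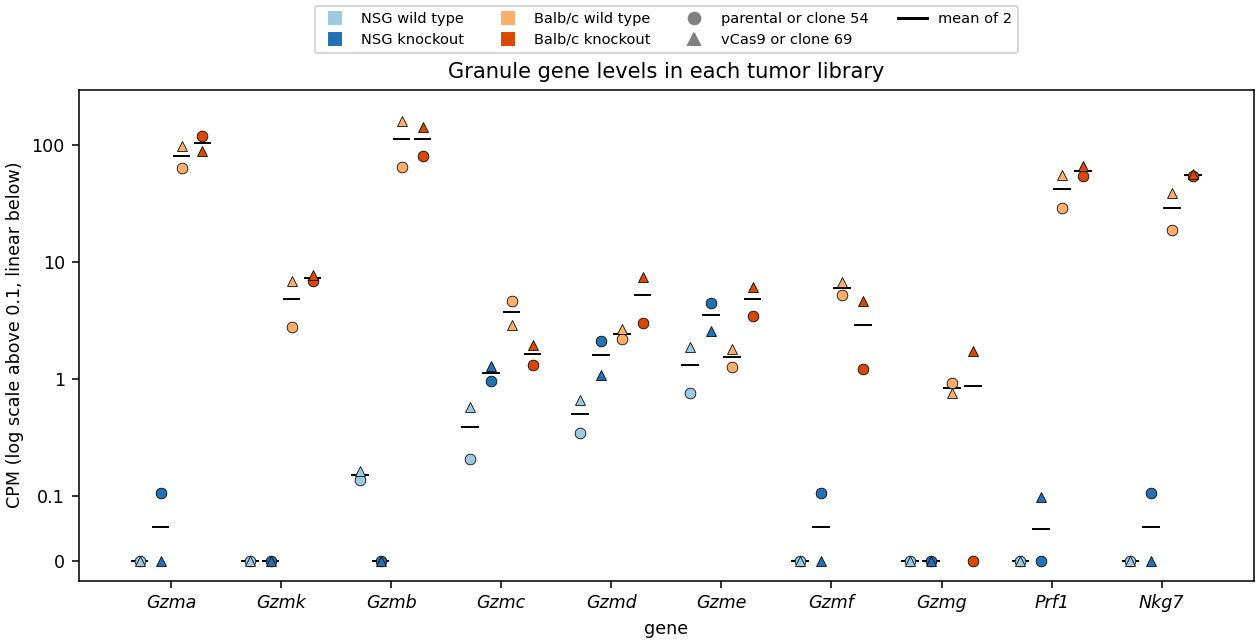
CPM of each of the 10 genes in each of the 8 libraries, on a vertical axis that is logarithmic above 0.1 and linear below, with colours for the 4 groups, shapes for the line or clone and bars for the mean of 2 libraries. Gzma, Gzmk, Gzmb, Gzmf, Prf1 and Nkg7 sit at or near 0 in NSG and between 1.22 and 161.5 CPM in Balb/c, while Gzme lies between 0.761 and 6.20 CPM in both hosts.

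Levels can be compared between genes once divided by exon length, as RPKM (CPM per kilobase of annotated exon). In Balb/c wild type Gzma led with 80.9 ± 24.4 RPKM (SD, n = 2), followed by Gzmb with 78.8 ± 47.6, Nkg7 with 31.9 ± 15.8 and Prf1 with 16.3 ± 7.23. In Balb/c knockout the means were 103.9 ± 21.2 RPKM for Gzma, 78.8 ± 31.2 for Gzmb, 60.6 ± 1.73 for Nkg7 and 23.5 ± 3.06 for Prf1. Gzma and Gzmb changed places between libraries, with Gzma first in the parental and clone 54 tumors and Gzmb first in vCas9 and clone 69, so these neighbours did not differ beyond their spread. Nkg7 was above Gzmb in clone 54 alone, Prf1 came after these 3 in all 4 Balb/c libraries, and each of the other 6 genes had a Balb/c group mean of at most 6.56 RPKM.

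As a share of the summed RPKM of the 10 genes, Gzma made up 35.6% in Balb/c wild type and 36.0% in Balb/c knockout, Gzmb 34.7% and 27.3%, and Nkg7 14.03% and 20.98%. In NSG the order was another one, with Gzme first in every library and at 57.6% of the sum in wild type and 55.3% in knockout. Gzmd had 20.7% and 24.0%, and Gzmc 17.4% and 18.0%, and Gzmd was above Gzmc in 3 libraries and below it in clone 69. These NSG shares rest on few reads, since Gzme had 11 to 42 counts per NSG library, Gzmd 5 to 20 and Gzmc 3 to 13.

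**Figure D3:**
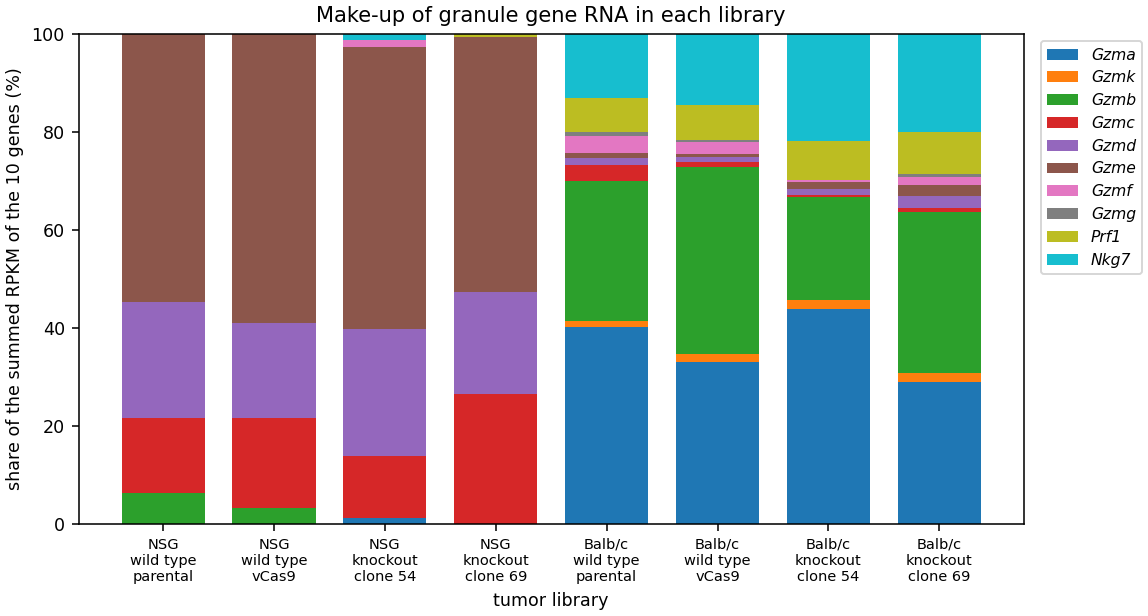
Stacked bars of each gene's share, in percent, of the summed RPKM of the 10 genes, with 1 bar per library. In the 4 NSG libraries Gzme, Gzmd and Gzmc fill nearly the whole bar, and in the 4 Balb/c libraries Gzma, Gzmb, Nkg7 and Prf1 do.

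Markers of the cells that could hold these RNAs were counted beside them. All 10 T cell markers and all 9 NK cell markers were called higher in Balb/c in both genotypes, with a median log2 fold change of 5.68 and 6.32 for T cells and of 5.72 and 7.85 for NK cells, beside the medians over all genes given above. With genes at 0 set to their bounds the NK medians were 4.32 and 6.06. Summed T cell markers were 5.67 to 11.2 CPM in NSG and 377 to 457 CPM in Balb/c, and summed NK cell markers 10.3 to 14.4 CPM and 130 to 199 CPM. Of the 9 NK cell markers, Ncr1, Klrc1 and Xcl1 had 0 counts in all 4 NSG libraries, and Klrb1c, Klrd1, Klre1 and Klri2 had 0 to 7 counts per library. Klrk1 had 3 to 37 and Cd244a 89 to 140 counts per NSG library, so that Cd244a, which myeloid cells also make, held most of the NSG sum. Il2rg, the cytokine receptor gene that NSG mice lack in working form, was at 5.81 to 7.48 CPM in NSG and 98.2 to 157 CPM in Balb/c.

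Lists for other immune cells differed between the hosts as well. Of 5 plasmacytoid dendritic cell markers, 3 were called higher in wild type and 4 in knockout tumors (median log2 fold changes 1.86 and 3.51), and their sum was 5.77 to 20.8 CPM in NSG and 34.8 to 81.6 CPM in Balb/c. All 4 B cell markers were called higher in wild type and 2 in knockout tumors (medians 6.30 and 2.70 with genes at 0 set to their bounds). DESeq2 called 4 and 3 of them, and limma-voom 3 and 0. The part of these cells in the granule gene levels was not tested.

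Mast cells store other serine proteases in granules, and their markers were read in every library, with no marker at 0. In wild-type tumors 6 of 10 mast cell markers were called lower in Balb/c and 1 higher, and in knockout tumors 4 were lower and 0 higher. Cpa3, the mast cell carboxypeptidase, was at 19.1 to 48.1 CPM in NSG and 4.36 to 14.1 CPM in Balb/c. The summed list was at 392 to 651 CPM in NSG, 1165 and 1166 CPM in Balb/c wild type and 172 and 629 CPM in Balb/c knockout, and Hdc, the histamine-forming enzyme, which other myeloid cells also make, contributed 91.5 to 1107 CPM of it. In Balb/c wild type nearly all of the sum was Hdc, and the mast cell proteases were low there. The part of mast cells in the NSG reads of Gzmc, Gzmd and Gzme was not tested.

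The rest of the granule machinery was examined through 16 further genes, of which 15 passed the filter. Gzmn, the seventh gene of the cluster, did not, with 0 to 2 counts per library. In wild-type tumors 11 were higher in Balb/c and 0 lower, beside 15.3% of all genes called higher, with a median log2 fold change of 1.42 (all genes -0.08). In knockout tumors 11 were higher and 0 lower, beside 15.7% of all genes, with a median of 1.69 (all genes 0.02). Among enzymes and inhibitors of the granule, Ctsw, a cathepsin of CD8 T and NK cells, was higher by 3.77 (SE 0.26, edgeR adjusted p = 0.000380) and 4.25 (SE 0.26, 0.000238) on the log2 scale, and Cst7, a cystatin that restrains cathepsins, by 2.28 (SE 0.33, 0.00398) and 3.98 (SE 0.35, 0.000431).

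Serpinb9, the inhibitor of granzyme B that shields cells from their own granules, was at 23.2 to 28.8 CPM in NSG and 46.1, 48.3, 100.1 and 79.7 CPM in the parental, vCas9, clone 54 and clone 69 tumors of Balb/c. It was higher by 0.90 (SE 0.18, edgeR adjusted p = 0.00983) and 1.69 (SE 0.18, 0.000740) on the log2 scale. Its relatives Serpinb9b and Serpinb6b were also higher in both genotypes. Ctsc, the peptidase that trims granzymes into active form, was not called in wild type (log2 fold change -0.26, SE 0.35, edgeR adjusted p = 0.582) and was higher in knockout tumors by 1.62 (SE 0.36, 0.0123). Gzmm, a granzyme outside both clusters, was at 7 to 25 counts in every library and did not pass either host test (log2 fold change 0.07, SE 0.48, and 0.34, SE 0.50).

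Among genes of granule transport and release, Rab27a (2.70, SE 0.25, and 2.22, SE 0.24) and Unc13d (1.39, SE 0.22, and 1.87, SE 0.22) were higher in Balb/c in both genotypes on the log2 scale. Lyst (2.52, SE 0.51, edgeR adjusted p = 0.0110) and Stx11 (1.21, SE 0.39, 0.0475) passed in wild type and not in knockout tumors (0.113 and 0.452), and Lamp1, a lysosome membrane gene, passed in knockout tumors (1.04, SE 0.28, 0.0280) and not in wild type (0.256). In wild type Lamp1 lay lower in Balb/c, at 387 and 413 CPM against 557 and 528 CPM in NSG. Stxbp2, the partner of Stx11, passed neither (0.149 and 0.0521). Srgn, whose proteoglycan packs granzymes, was higher by 1.42 (SE 0.40, 0.0310) and 1.52 (SE 0.40, 0.0234). Several of these genes are also made by myeloid cells, whose host calls were not the same in both genotypes. Tested against each other, the host differences of both genotypes gave 0 calls in edgeR and limma-voom among these markers. DESeq2 called 5 macrophage and 3 neutrophil markers in that test. All 5 macrophage markers were called higher in Balb/c knockout (median 1.76), against 1 higher and 1 lower in wild type, and of 6 neutrophil markers 3 were called higher in Balb/c wild type (median 2.11), against 0 higher and 1 lower in knockout tumors (median -0.83). Ctsc and Lamp1 were called in the same genotype as most macrophage markers, and Lyst and Stx11 in the same as the neutrophil markers, and the part of these cells was not tested.

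Fasl, the ligand of CD95 and itself carried to the surface by killer lymphocytes, was at 0.346, 0.414, 0.214 and 0 CPM in the parental, vCas9, clone 54 and clone 69 tumors of NSG and at 19.4, 23.5, 39.3 and 34.0 CPM in those of Balb/c. It was higher by 5.79 on the log2 scale in wild type (SE 0.42, edgeR adjusted p = 0.000424). In knockout tumors, with 2 counts in the NSG group, the ratio was 360 with a 95% counting interval of 99.3 to 2973 (edgeR adjusted p = 0.000238). Of 10 regulators of the cytotoxic program, 8 were higher in Balb/c wild type and 9 in Balb/c knockout, with 0 lower, where 15.3% and 15.7% of all genes were called higher. Their medians were 2.59 and 2.81. Tbx21, the first listed, which encodes the transcription factor T-bet, had 1 count among the NSG libraries and 4.92, 7.48, 14.6 and 12.03 CPM in the parental, vCas9, clone 54 and clone 69 tumors of Balb/c.

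The second comparison asks what loss of CD95 in the tumor cells does to the granule genes in a host with lymphocytes. No member passed in Balb/c, where 27 of all genes, or 0.176%, were called in either direction, 0.0457% higher and 0.131% lower. At an unadjusted p under 0.05 edgeR gave 3 members (Gzmc, Gzme and Nkg7), DESeq2 3 and limma-voom 4, and over all genes edgeR gave 4729. The median log2 fold change of the members was 0.44, beside 0.06 over all genes. In 3 members both knockout tumors were above both wild-type tumors and in 2 below, where 32.9% and 29.3% of all genes did the same.

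Gzmb differed least, and its mean was 113 CPM in either genotype (SD 68.4 in wild type and 44.8 in knockout, n = 2 each). The log2 difference of 0.00 had an SE of 0.44 and a 95% interval of -1.04 to 1.04 (edgeR adjusted p = 0.999), so that a change of about that size in either direction was not detectable here. It was 0.72 without the vCas9 library and 0.25 without clone 54, but -0.51 without the parental library and -0.47 without clone 69 (adjusted p = 0.314 to 0.804). Gzma stood at 81.3 ± 24.5 CPM in wild type and 104.5 ± 21.3 CPM in knockout, so that the log2 difference was 0.36 (SE 0.28, edgeR adjusted p = 0.411). With 1 Balb/c library left out it ranged from 0.03 (without clone 54) to 0.63 (without vCas9).

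Prf1 was at 42.1 ± 18.7 CPM in wild type and 60.7 ± 7.91 CPM in knockout (log2 fold change 0.53, SE 0.33, edgeR adjusted p = 0.315). The vCas9 tumor, at 55.3 CPM, was level with clone 54, at 55.1 CPM. Gzmk differed by 0.58 (SE 0.50, adjusted p = 0.466). Without the parental tumor these 2 values were 0.14 and 0.08, and without the vCas9 tumor 0.99 and 1.30. The parental tumor was also the one with the most B cell marker RNA, and the part of this in the Prf1, Gzmk and Nkg7 values was not tested.

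Both knockout tumors lay above both wild-type tumors for 32.9% of all genes, so such a separation is common here. Among Gzma, Gzmb, Gzmk, Prf1 and Nkg7, it was seen only for Nkg7, with 29.1 ± 14.4 CPM in wild type and 55.4 ± 1.59 CPM in knockout. Its log2 fold change of 0.92 (SE 0.36, 95% interval 0.07 to 1.78) had an edgeR adjusted p of 0.140. It was 0.50 without the parental tumor (adjusted p = 0.460) and 1.47 without the vCas9 tumor (adjusted p = 0.152). Most of the spread lay within wild type, between 18.9 and 39.3 CPM.

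Inside the cluster, the members lay on both sides of 0. Gzme was at 1.54 ± 0.373 CPM in wild type and 4.84 ± 1.91 CPM in knockout (log2 fold change 1.64, SE 0.55, 95% interval 0.37 to 2.90, edgeR adjusted p = 0.0977), and Gzmd at 2.45 ± 0.349 and 5.22 ± 3.13 CPM (1.08, SE 0.54, adjusted p = 0.215). Gzmd was 0.30 without clone 69 (adjusted p = 0.708) and 1.49 without clone 54 (adjusted p = 0.180). Gzmc had the opposite sign, with 3.79 ± 1.24 CPM in wild type and 1.64 ± 0.457 CPM in knockout (-1.20, SE 0.50, 95% interval -2.36 to -0.05, adjusted p = 0.149), and so had Gzmf, with 6.02 ± 1.08 and 2.94 ± 2.44 CPM (-1.05, SE 0.66, adjusted p = 0.315). When clone 69 was left out, so that clone 54 stood alone for the knockout, the Gzmf value was -2.29. Gzmg had 0 counts in clone 54 and the most counts of any library, 24, in clone 69. Among the 10 mast cell markers in the same tumors, 8 had both knockout tumors above both wild-type tumors, as 32.9% of all genes did, and 1, Hdc, had both below. Their median log2 fold change was 1.03, and edgeR called 0 of them (6 at an unadjusted p under 0.05), DESeq2 2 and limma-voom 0. Cpa3 was at 5.77 and 4.36 CPM in wild type and 14.1 and 12.9 CPM in knockout. The part of mast cells in the Gzme and Gzmd values was not tested.

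Of the 15 further granule genes tested, 0 passed in edgeR, with 8 at an unadjusted p under 0.05 and a median log2 fold change of 0.35. Both knockout tumors were above both wild-type tumors for 8 of them and below for 2, where 32.9% and 29.3% of all genes did the same. With DESeq2, which called 16% of 13825 genes here, 6 of them passed, Serpinb9 (0.84, adjusted p = 0.00594), Cst7 (1.18, 0.0153), Ctsc (1.08, 0.0195) and Lamp1 (0.89, 0.0245) as higher and Stx11 (-1.44, 0.00514) and Lyst (-1.37, 0.0227) as lower, and limma-voom called 0. The nearest to the threshold in edgeR were Serpinb9 (0.93, SE 0.17, edgeR adjusted p = 0.0564) and Cst7 (1.28, SE 0.30, 0.0587), followed by Stx11 (-1.35, SE 0.39), Lamp1 (0.99, SE 0.28) and Ctsc (1.17, SE 0.35). Fasl differed by 0.77 (SE 0.29, adjusted p = 0.125) and Ctsw by 0.59 (SE 0.21, 0.112). The summed macrophage markers, at 1818 and 2131 CPM in wild type and 8653 and 3649 CPM in knockout, and the summed neutrophil markers, at 7218 and 5501 CPM against 408 and 2087 CPM, moved with these values, and their part was not tested. Of 10 cytotoxic regulators 0 passed in edgeR, with 3 at an unadjusted p under 0.05, 1 passed in DESeq2 and 0 in limma-voom (median log2 fold change -0.03), and Tbx21 differed by 1.10 (SE 0.39, adjusted p = 0.118).

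**Figure D4:**
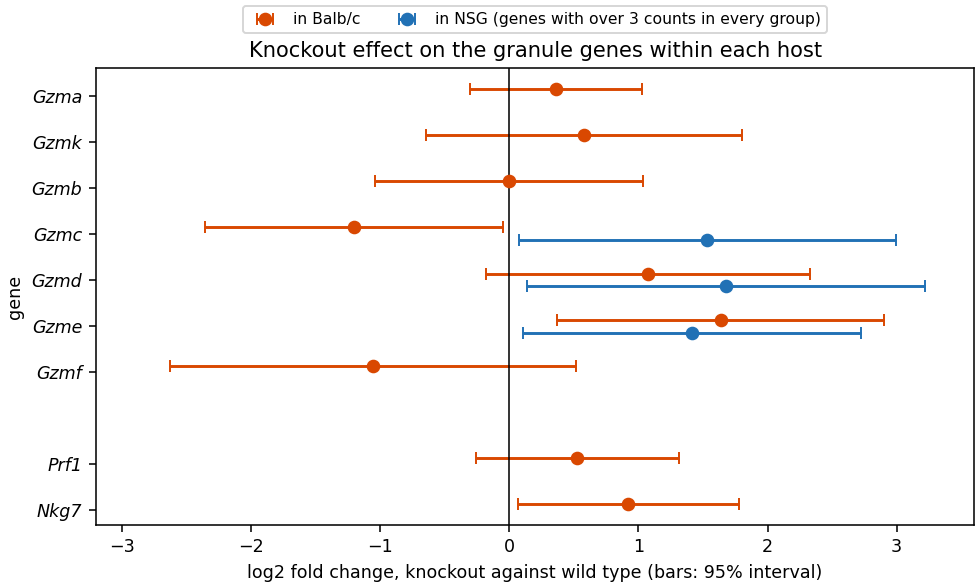
Log2 fold change, knockout against wild type, in Balb/c (9 genes) and in NSG (the 3 genes with over 3 counts in each NSG group), with points for the estimate and bars for the 95% interval of the edgeR fit. Gzmg is left out for its low counts. In Balb/c, Gzme and Nkg7 lie above 0 and Gzmc below 0 with intervals that end short of 0, yet none passed after adjustment over all genes.

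Markers of T and NK cells were compared between the same tumors, and the cell source of the granule gene reads was not tested. Of 10 T cell markers and 9 NK cell markers, edgeR called 0 in Balb/c between knockout and wild type, with 1 and 2 at an unadjusted p under 0.05. DESeq2 called 1 T cell marker and 0 NK cell markers, and limma-voom 0 of either. At an unadjusted p under 0.05 limma-voom gave 1 and 4. The median log2 fold changes were 0.05 and 0.56. Both knockout tumors were above both wild-type tumors for 1 T cell marker and for 6 NK cell markers (Ncr1, Klrb1c, Klrd1, Klre1, Klri2 and Xcl1), as 32.9% of all genes were, and below for 1 and 0. These NK cell markers were thus higher in the same tumors as Nkg7, and their part in its value was not tested beyond ratios per library. Summed T cell markers were 457 and 377 CPM in wild type and 396 and 415 CPM in knockout, and summed NK cell markers 130 and 192 CPM against 178 and 199 CPM. Cd3e differed by -0.89 on the log2 scale (SE 0.28, edgeR adjusted p = 0.0887) and Ncr1 by 1.31 (SE 0.40, 0.0985).

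Per unit of CD8 marker (Cd8a plus Cd8b1), Nkg7 stood at 0.303 (parental), 0.351 (vCas9), 0.616 (clone 54) and 0.552 (clone 69), so that both knockout tumors were above both wild-type tumors. Prf1 did likewise at 0.461, 0.494, 0.626 and 0.648. Gzma, at 1.02, 0.882, 1.36 and 0.873, and Gzmb, at 1.04, 1.44, 0.926 and 1.41, overlapped. With the NK cell genes Ncr1 plus Klrd1 as the reference, Nkg7 was at 0.987, 1.40, 1.44 and 1.55, and Prf1, at 1.504, 1.97, 1.46 and 1.82, overlapped. Gzma, at 3.34, 3.51, 3.17 and 2.45, was then lower in both knockout tumors, and Gzmb, at 3.38, 5.74, 2.16 and 3.97, overlapped. The margin of Nkg7 with this reference was narrow, at 1.40 in vCas9 against 1.44 in clone 54. Klrd1 made up most of the reference, at means of 19.2 CPM in wild type and 26.0 CPM in knockout. Ncr1 was at 4.49 and 11.1 CPM, beside 29.1 and 55.4 CPM for Nkg7, and a ratio to Ncr1 alone was not made. Whether Prf1 or Gzma separated the groups thus depended on the reference, and with 2 libraries on each side no test was made of these ratios. The share of all genes that would separate the groups in such ratios is not given here.

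Against the 3 CD3 genes (Cd3e, Cd3d and Cd3g) the parental tumor was the lowest for all 4 genes. Its ratios were 0.475 for Gzma, 0.481 for Gzmb, 0.214 for Prf1 and 0.141 for Nkg7. The vCas9 tumor, the other wild-type library, was at 0.837, 1.37, 0.469 and 0.334. Clone 54 was at 1.10, 0.750, 0.507 and 0.499 and clone 69 at 0.761, 1.23, 0.564 and 0.480. Nkg7 and Prf1 were again higher in both knockout tumors than in both wild-type tumors, and Gzma and Gzmb overlapped. With all 10 T cell markers as the reference, Prf1 overlapped, at 0.0631, 0.147, 0.139 and 0.160 in the parental, vCas9, clone 54 and clone 69 tumors, and so did Gzma and Gzmb. Nkg7, at 0.0414, 0.104, 0.137 and 0.136, did not. For Gzmk the outcome also depended on the reference. With CPM levels that overlapped, it was higher in both knockout tumors against CD8, at 0.0448, 0.0619, 0.0781 and 0.0754, and against CD3, at 0.0208, 0.0588, 0.0632 and 0.0657, and overlapped against the NK genes and against all 10 T cell markers.

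**Figure D5:**
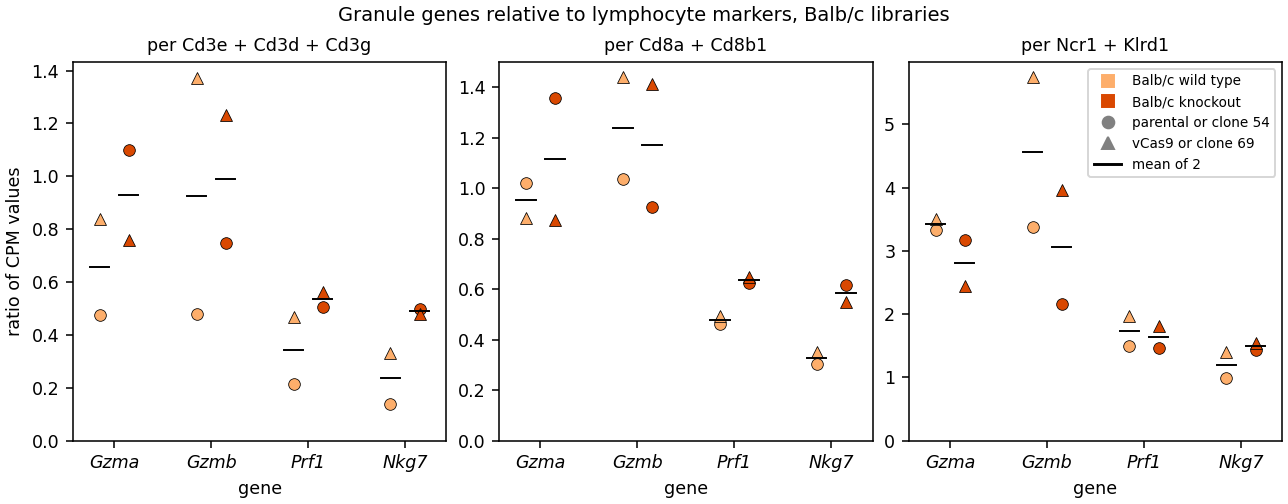
Ratio of the CPM of Gzma, Gzmb, Prf1 and Nkg7 to the summed CPM of 3 CD3 genes, of 2 CD8 genes and of 2 NK cell genes in each Balb/c library, with colours for genotype, shapes for the line or clone and bars for the mean of 2. Nkg7 is higher in both knockout tumors in all 3 panels, Prf1 in the first 2, Gzma is lower in both in the third, and Gzmb overlaps in all 3.

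In NSG the same comparison concerns a host without mature lymphocytes, and 7 of the 10 members had 4 counts or fewer over each NSG group. No member passed, where 0.0131% of all genes were called. At an unadjusted p under 0.05 edgeR gave 3 members, Gzmc, Gzmd and Gzme, DESeq2 2 and limma-voom 1, and over all genes edgeR gave 2148. All 3 were higher in both knockout tumors than in both wild-type tumors, which 26.7% of all genes also were.

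Mean levels of Gzme were 1.33 CPM in wild type (SD 0.808) and 3.54 CPM in knockout (SD 1.35, n = 2 each), with a log2 difference of 1.42 (SE 0.57, 95% interval 0.11 to 2.72, edgeR adjusted p = 0.330). Gzmd was at 0.504 ± 0.224 and 1.62 ± 0.739 CPM (1.68, SE 0.67, adjusted p = 0.330), and Gzmc at 0.394 ± 0.263 and 1.127 ± 0.233 CPM (1.53, SE 0.63, adjusted p = 0.341). The 3 epithelial markers were likewise higher in both knockout tumors, with sums of 937 and 1082 CPM in wild type and 1995 and 1472 CPM in knockout, and 8 of 10 mast cell markers had a fitted value above 0, with a median of 0.50. Both knockout tumors were above both wild-type tumors for 2 of these, Kit and Mcpt4, and edgeR called 0 of the 10 (2 at an unadjusted p under 0.05), DESeq2 1 and limma-voom 0. Cpa3 was at 19.1 and 25.2 CPM in wild type and 24.8 and 48.1 CPM in knockout. All 5 macrophage markers were lower in both knockout tumors (0 called and 2 at an unadjusted p under 0.05 in edgeR, 0 called by DESeq2 or limma-voom), with sums of 2442 and 2510 CPM in wild type and 1346 and 1720 CPM in knockout. Of 6 neutrophil markers, 5 had a fitted value above 0 (median 0.71). Both knockout tumors were above both wild-type tumors for 2 of these 6 and below for 1, as 26.7% and 25.9% of all genes were. Of 3 basophil markers, read at few counts, 2 were higher in CPM in both knockout tumors and 0 lower, as 26.7% and 25.9% of all genes were. For 1 of these 2, with 2 counts over each NSG group, the CPM difference came from library depth alone. EdgeR, DESeq2 and limma-voom called 0 neutrophil and 0 basophil markers. The part of epithelial, mast, macrophage, neutrophil and basophil cells in the granzyme values was not tested. Of the 10 cytotoxic regulators, 6 were lower in both knockout tumors, as 25.9% of all genes were, and 0 higher, with a median of -1.14. EdgeR called 0 of these 10 in NSG (7 at an unadjusted p under 0.05), DESeq2 4 and limma-voom 0. How many of all genes DESeq2 called in NSG is given with the processing alternatives. Gzmd and Gzme share windows of both lengths searched, so their values may not be independent, and Gzmc shared windows with them at 50 bases and none at 75.

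The knockout effects of the 2 hosts were then set against each other in the same fit. No member passed this test of the difference and 0% of all genes were called, with 3452 genes and 1 member at an unadjusted p under 0.05 in edgeR, and 1 member each in DESeq2 and limma-voom. The member was Gzmc, which was higher in the knockout tumors of NSG and lower in those of Balb/c. Its difference, Balb/c minus NSG, was -2.74 on the log2 scale (SE 0.80, 95% interval -4.60 to -0.88, edgeR adjusted p = 0.126). For Gzme the difference was 0.22 (SE 0.79, 95% interval -1.60 to 2.04) and for Gzmd -0.60 (SE 0.85). All 5 macrophage markers (median 2.25) and all 6 neutrophil markers (median -2.76) had an unadjusted p under 0.05 in edgeR. DESeq2 called 5 and 3 of these markers and 3 of the 15 further granule genes, and edgeR and limma-voom 0 of each list. The part of these cells in the granzyme values was not tested.

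Gzme was higher in all 4 knockout tumors, at 2.58 to 6.20 CPM, than in all 4 wild-type tumors, at 0.761 to 1.90 CPM, across both hosts. These are 2 lines per genotype, each grown in both hosts, and not 4 independent lines. The share of all genes that separate the genotypes in this way over both hosts is not given here. A fit with a host term and a single knockout term was made because this pattern was seen, so it is no independent test of it, and it treats the 8 libraries as independent, which can make its SE and interval too small. It gave Gzme a log2 fold change of 1.53 (SE 0.39, 95% interval 0.65 to 2.41, edgeR adjusted p = 0.197), Gzmd 1.32 (SE 0.42, adjusted p = 0.220) and Nkg7 0.96 (SE 0.36, adjusted p = 0.253). In that fit 0% of all genes passed, while 3 members and 2645 genes had an unadjusted p under 0.05. The smallest adjusted p of any gene was 0.164.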

How the data were processed

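The authors deposited unnormalized counts for each Ensembl gene, in 1 file per library. Per the submitters' processing notes, cutadapt 1.13, STAR, HTSeq 0.6.1p1 and DESeq2 were used, with the builds mm10 and hg19 named without their roles. The strand setting, annotation and filters are not given in the sources used here. Symbols were found for 24942 of 25006 identifiers.

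Tests used edgeR 4.0.16 under R 4.3.3 (filterByExpr, TMM, glmQLFit, glmQLFTest), with all 8 libraries in 1 model of 4 group means and 4 residual degrees of freedom (common biological coefficient of variation 0.244). P-values were adjusted over all 15310 genes tested by Benjamini-Hochberg, at a threshold of 0.05. CPM was computed from counts and TMM-scaled totals, and RPKM from CPM and GENCODE M21 exon lengths (GRCm38). A group with 0 counts was set to 3 counts over the group, and ratios with few counts carry exact conditional binomial intervals. Alternatives used RLE or total-count scaling, no filter, DESeq2 1.42.0, limma-voom (limma 3.58.1), only the groups compared, the cell line as a block and each library left out. The scripts were tested on simulated data.

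The members, gene lists and tests were chosen with earlier results of these data known. Genes named are the 10 members, all 16 further granule genes, the first gene of each other list, up to 2 called genes per list and genes with the most similar pattern. Fas was named as the check of the target and the CD3, CD8 and NK genes of the ratios as their references. Il2rg, Hdc, Kit, Mcpt4, Krt8, Krt18, the overlapping genes Esm1 and Gm4022 and the NK cell markers beyond the rule were named after their values were seen. The same line was grown in both hosts, per the titles, so the cell line pairs libraries across hosts. Line differences correlated between hosts across genes at 0.09 for wild type and -0.35 for knockout. Promoters came from RefSeq (GRCm38.p6) and matched all 10 members. Coding sequences from GENCODE M21 were compared with Biopython 1.88 in place of a planned protein comparison.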

Additional observations from a re-analysis of the deposited data

How the results depend on the processing

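The number of members called kept within 1.5 times under scaling, filter, tool and sample alternatives, with 1 exception. The exception was the knockout in Balb/c without clone 69, where clone 54 stood alone and Gzmf and Gzmg lay lower. The share of all genes called in that run is not given here, so it is no result about these members. With each library left out in turn, members called were 6 to 9 for host in wild type, 5 to 8 for host in knockout tumors, 0 to 2 for the knockout in Balb/c, 0 for the knockout in NSG and 0 for the difference between hosts. The lone library of a group was then assumed to vary like the others. Limma-voom lost Gzmd in wild type (adjusted p = 0.0681), and Gzmd in knockout tumors was gained with DESeq2 (0.0437) and with no filter (0.0329). No member called in the main test changed sign under an alternative run. Among the values of single members under an alternative, 30 lay on the other side of 0 from an uncalled main value or moved off 0. For the knockout in Balb/c, Gzmb ran from -0.51 to 0.72 with a library left out, and Gzmg was 0.94 without clone 54 and below 0 without clone 69.

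A replicate block for cell line paired the hosts, and with it 7 members were called for host in wild type (8 without it), 6 in knockout tumors and 0 for the difference. Gzmd in wild type was the member lost, and the block changed no other member's call. The block took the genes called in all from 4825 to 2073 and from 4757 to 2878. No block was possible within a host, where wild-type and knockout tumors share no line. A crossed pairing of the clones, tried because their differences correlated negatively between hosts, gave 8 members for host in knockout tumors and 0 for the difference.

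Counts over all genes moved more. The knockout in Balb/c gave 27 genes, but 94 with RLE scaling, 1774 with no filter, 2208 with DESeq2 and 0 with only the groups compared, and 0 to 3886 with a library left out. The knockout in NSG gave 2 genes, but 133 with no filter and 340 with DESeq2, and 1 each with limma-voom and with only the groups compared. The difference gave 0 genes, but 674 with no filter, 974 with DESeq2 and 307 with crossed pairing. The host in knockout tumors gave 2450 genes with only the groups compared. Leaving out a library gave 858 to 6361 genes for host in wild type and 2461 to 4640 in knockout tumors. Scaling by total counts moved the median of all genes by -0.16 (wild type) and -0.19 (knockout) in the host comparisons, and the share of calls that were higher from 48.6% to 36.5% and from 50.5% to 37.3%. The causes were not tested.

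Depth limits the NSG values, where 1 count is worth 0.0692 to 0.107 CPM and most members lie at or under 3 counts. With 2 libraries per group of different lines, knockout effects of about 1 on the log2 scale were within the intervals of most members.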

Other observations

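Genes whose levels ran most alike to a member over the 8 libraries were listed by Pearson correlation of log2 CPM among 11578 genes with at least 5 CPM in a Balb/c group. These values describe 8 libraries that share the division by host, and 440 genes exceeded 0.95 for Gzmb and 385 for Nkg7. Gzmb ran closest to Dnajb13 (0.998), Siglecg, Uvrag, Ctdsp1 and Arhgap30 (0.996). Nkg7 ran closest to Vav1, a signalling protein of blood cells (0.999), and then to the lectin receptors Klrg1, Klrc1 and Klrc2 of killer lymphocytes, and to Myo1f (0.996). Gzmc, which was also read in NSG tumors, had 27 genes above 0.95, with Wdr44 (0.996), E2f2, Il24, a cytokine gene (0.980), Ypel3 and Bicral first.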
